A study of Rattus norvegicus with 15 samples.

Results

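Solute carriers are the membrane proteins that move ions, sugars, amino acids, metals, nucleotides and organic acids across the plasma membrane and the membranes of organelles. Their genes were followed here in the rat ductus arteriosus, the fetal shunt between pulmonary artery and aorta that closes after birth, and in the neighbouring aorta. The genes were taken by symbol: a probe set counted where its only annotated gene was named Slc, a family number, the letter a, b or c and a member number, and Slc2a1, Slc8a1 and Slc44a2 were left out. This gave 224 genes of 49 families on 347 of 26202 probe sets. Of these, 155 genes (69.2%) were kept because their signal lay above the median signal of their chip in at least 1 of 5 states, against 8039 of 10969 genes (73.3%) on the chips as a whole. The kept genes were thus selected on their own signal in these arrays, and the fact that they were detected is a description and not a finding.

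Each state was read on 1 array of every chip of a set of 3 Affymetrix rat chips (A, B and C), which gave 15 arrays. The states were aorta (arch and thoracic part) and ductus of fetuses at gestation day 19 delivered by caesarean section from dams in normal air, aorta and ductus of newborns taken 3 hours after they were born vaginally, and ductus of day 19 fetuses from dams that spent 3 hours in 100% oxygen, called oxygen ductus below. The cold medium used for dissection was gassed with 2.5% oxygen in the case of fetal vessels and 12.5% in that of newborn ones. The rat strain, the sex and the number of animals behind an array are not given in the sources used here, and there was no oxygen-treated aorta. Age, vaginal birth, breathing of air and the medium oxygen differ together between fetal and newborn states and cannot be told apart, so "at birth" below means newborn against fetal day 19.

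Solute carriers work in 3 broad ways: as uniporters that let a solute run down its own gradient, as symporters that pull it along with sodium or protons, and as antiporters that trade it for another solute. In smooth muscle the chloride and bicarbonate carriers help set cell chloride and pH, which bear on membrane potential and tone. Glucose, lactate and mitochondrial carriers link the vessel wall to its fuel supply, and Golgi nucleotide sugar carriers feed the building of matrix glycoproteins.

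Signals are linear intensities. A signal under the floor of its chip (149.8 on A, 241.7 on B and 243 on C) was raised to that floor for ratios, a fold with 1 side under the floor is given as "at least", and a gene with several probe sets was read at the brightest. With 1 array per state and chip no ratio between 2 states could be tested. As a yardstick, the vessel by stage interaction in the 4 arrays without oxygen treatment gave a standard deviation of the log2 ratio of 2 arrays of 0.29 on A, 0.32 on B and 0.27 on C for a typical probe set, which holds any true interaction too. Between 46.9% and 51.8% of probe sets lay above the floor on each array. All 8 smooth muscle markers were above the floor. The samples are bulk tissue, in which fewer cells of a type and less RNA per cell cannot be told apart.

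Of the 155 kept genes, 110 were above the floor in all 5 states, 13 were under it in 1 state, 7 in 2, 20 in 3 and 5 in 4. The nearest genes outside the threshold were Slc27a2, Slc25a30 and Slc4a10, with a highest signal of 0.985, 0.991 and 0.996 times the floor. The nearest inside were Slc18a2, Slc26a1 and Slc45a3 at 1.02, 1.03 and 1.07 times the floor. Nucleotide sugar carriers of family Slc35 and the system A and related amino acid carriers of family Slc38 were kept in full (10 of 10 and 5 of 5 genes). Of the 30 mitochondrial Slc25 carriers 24 were kept, of 13 organic ion carriers of family Slc22 6, of 13 carriers of family Slc6 7, and of 7 sodium-proton exchangers of family Slc9 2.

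A wide span over the states was less frequent among the transporter genes than among all genes, with no test of that difference. Of the 155 kept genes 18 (11.6%) spanned at least 2-fold between their highest and lowest state, against 1306 of 8039 genes on the chips (16.2%), and their median span was 0.49 log2 units against 0.60. A span of at least 1.5-fold was seen in 65 (41.9%), against 52.1% of all genes. Among the 18 genes the highest signal was in newborn aorta for 6, in fetal ductus for 5, in oxygen ductus for 4, in fetal aorta for 2 and in newborn ductus for 1. The lowest was in newborn ductus, newborn aorta, oxygen ductus and fetal aorta for 4 each and in fetal ductus for 2.

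**Figure D1:**
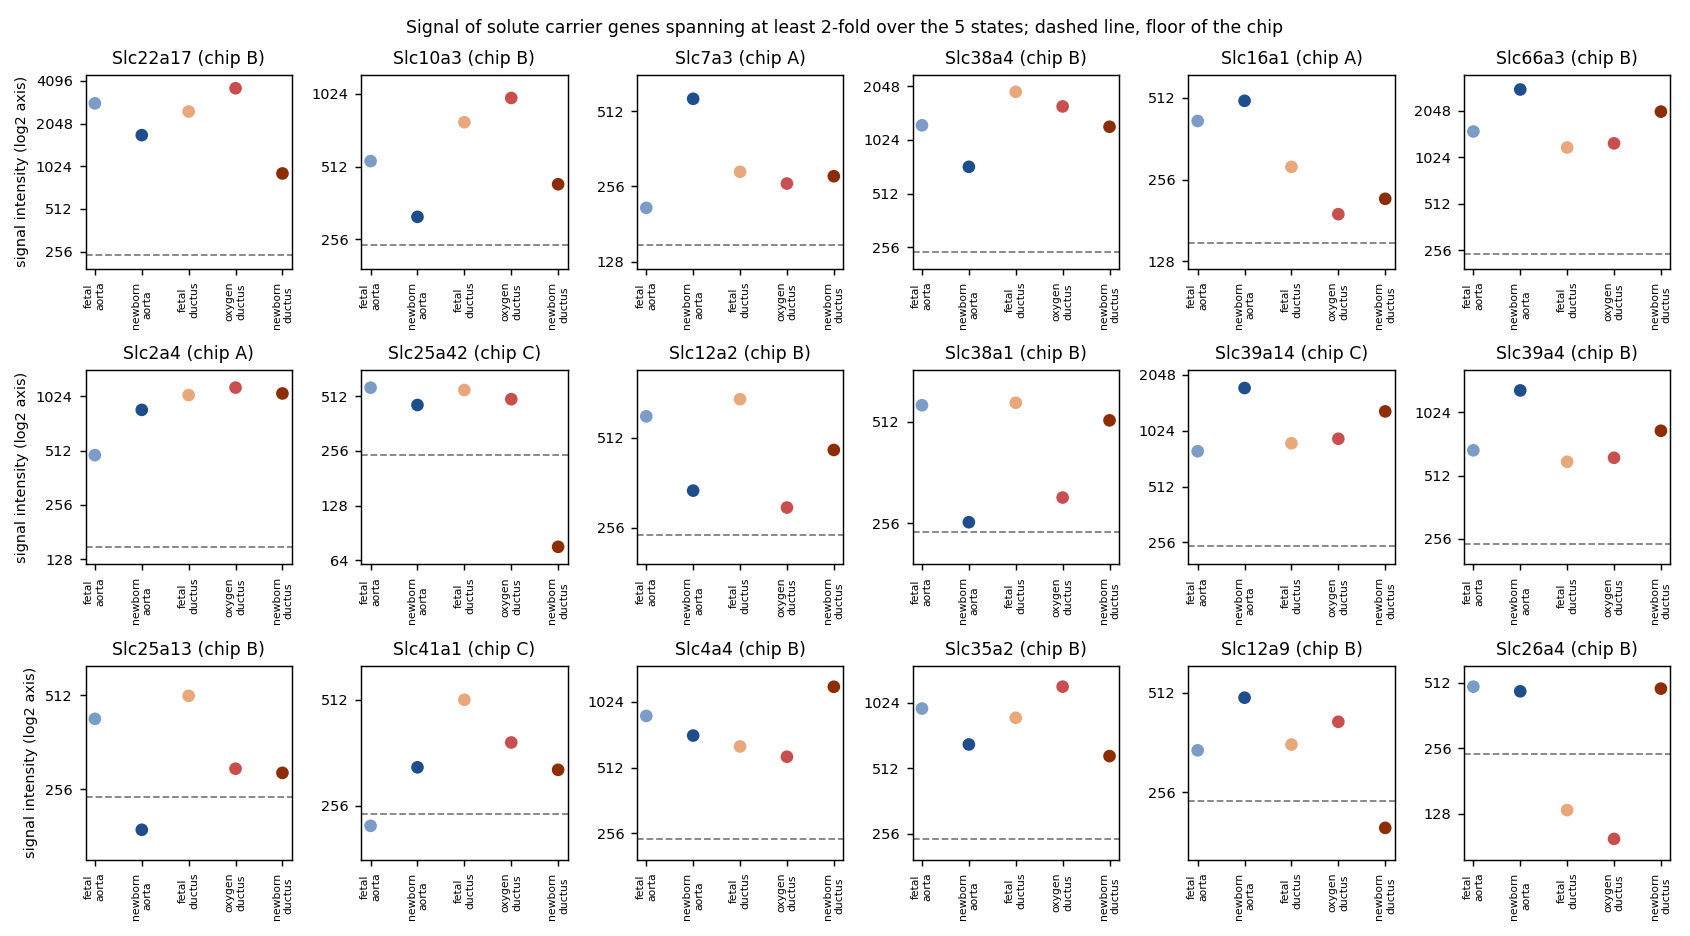
Signal intensity (log2 axis) of the 18 solute carrier genes whose signal spanned at least 2-fold, 1 point per state, each panel with its own scale and the floor of its chip as a dashed line. Slc22a17 runs from 3638 in oxygen ductus to 912 in newborn ductus, and Slc7a3 stands highest in newborn aorta at 573.

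The shares of transporter genes at least 1.5-fold apart were set beside those of all genes read the same way in 6 comparisons of states. In fetal ductus over fetal aorta 4 of 147 measured transporter genes were higher, against 4.12% of all genes, and 10 were lower (6.80%), against 5.00%. In newborn ductus over newborn aorta 7 of 144 were higher (4.86%, against 6.01% of all genes) and 10 lower (6.94%, against 5.89%). From fetal to newborn ductus 12 of 146 were higher, against 7.48% of all genes, and 14 lower, against 9.76%. These birth counts correspond to 8.22% and 9.59% of the transporters, near the shares of all genes.

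From fetal to newborn aorta 8 of 151 transporter genes were higher (5.3%, against 7.53% of all genes) and 17 lower (11.3%, against 10.9%). Maternal oxygen left 5 of 142 higher (3.52%, against 4.38% of all genes) and 7 lower (4.93%, against 5.41%) than in untreated fetal ductus. Newborn ductus over oxygen ductus, the comparison with the most transporters apart, held 14 of 140 higher, against 10.4% of all genes, and 14 lower, against 14.5%. Median log2 ratios of the transporters ran from -0.07 in the aorta at birth to -0.02 in fetal ductus over fetal aorta and under oxygen, against -0.09 to 0.04 for all genes over the 6 comparisons. How these shares stood to those of all genes depended on the processing. The transporters' share exceeded that of all genes in 4 of 12 counts with the median floor and in 8 with the floor at the 25th percentile. These 8 held 14.6% against 10.5% for higher in ductus at birth, 19.4% against 15.1% for lower in aorta at birth and 13.8% against 10.4% for lower under oxygen. It did so in 6 of 12 with a pseudocount of 50 and no floor and in 5 with a floor at the 65th percentile. Quantile normalization gave 5 of 12, and the mean of all probe sets of a gene 2. The comparisons share arrays with one another, and ratios from 1 array a side carry no replicate check.

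**Figure D2:**
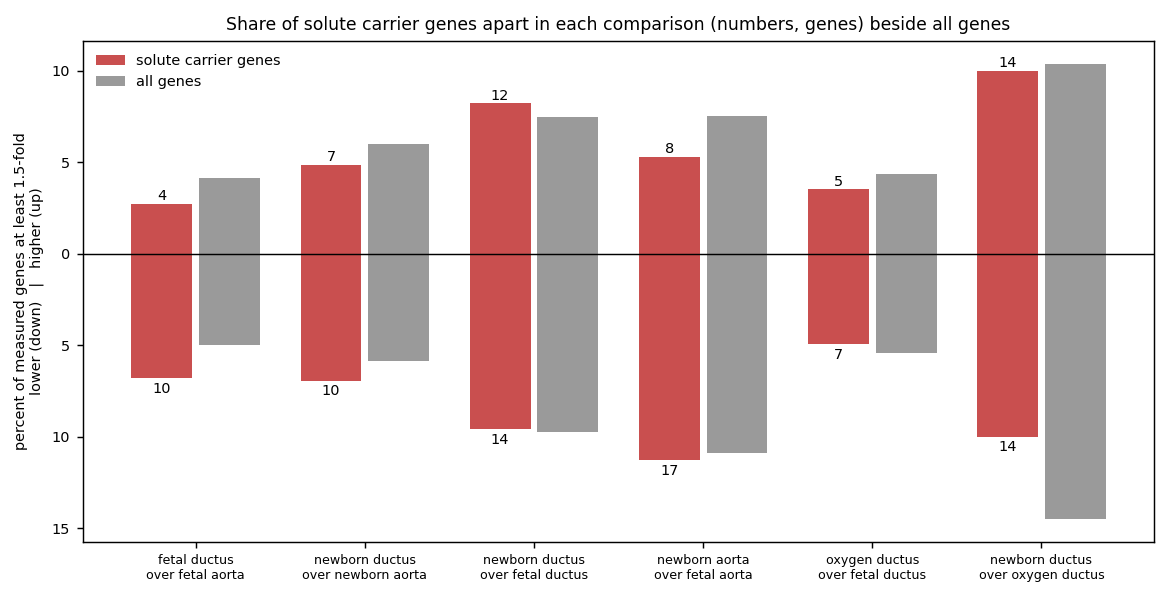
Percent of measured genes at least 1.5-fold higher (up) or lower (down) in each of 6 comparisons, solute carrier genes in red with their number and all genes in grey. The red bars reach 8.22% up and 9.59% down for newborn over fetal ductus, beside 7.48% and 9.76% in grey.

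The additive limma fit of vessel and stage on 4 arrays per chip covered 197 transporter probe sets among 13810. No transporter passed an adjusted p (Benjamini-Hochberg, limma) of 0.05 for the vessel effect, for which 5 probe sets of any gene passed (0.0362%), while 15 transporter probe sets (7.61%) had an unadjusted p under 0.05 against 7.75% of all. For the birth effect 1 transporter probe set passed, against 233 of all genes (1.69%), and 24 (12.2%) had an unadjusted p under 0.05 against 18.6%. That probe set belonged to Slc22a17, lower after birth over both vessels.

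Slc22a17 encodes a membrane protein of the organic cation transporter family that is known as a cell surface receptor for the iron-carrying protein lipocalin 2. Its signal was 2847 in fetal aorta, 1699 in newborn aorta, 2494 in fetal ductus, 3638 in oxygen ductus and 912 in newborn ductus. It was therefore lower in the newborn than in the fetal state of each vessel, 2.74-fold lower in ductus and 1.68-fold in aorta, and highest after maternal oxygen. In limma the birth effect was -1.10 log2 units with a standard error of 0.24 and an adjusted p of 0.048. The call sits at its threshold: over 7 alternative settings the adjusted p in limma ran from 0.018 to 0.85, and it passed 0.05 in 3 of them. Another probe set on chip B gave a birth effect of -1.13 (SE 0.28, adjusted p in limma 0.067) and the one on chip C -0.29 (SE 0.18, adjusted p 0.45), so all 3 were lower after birth but by different amounts. Newborn ductus was 3.99-fold below oxygen ductus, where the other chip B probe set gave a log2 ratio of -1.20 and the chip C set -0.10. For oxygen over fetal ductus the 3 sets gave 0.54, 0.64 and -0.29, so the high value after oxygen was read on chip B but not on chip C.

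Birth was compared in ductus and aorta on separate arrays. Of 142 transporter genes measured in both, 5 were at least 1.5-fold lower in both newborn vessels: Slc22a17, Slc10a3, Slc25a13, Slc38a4 and Slc3a2. They were 35.7% of those lower in ductus and 29.4% of those lower in aorta, beside 262 of 727 and 262 of 818 for all genes. Slc66a3 alone was higher in both, 8.33% of those higher in ductus and 12.5% of those higher in aorta, against 34.4% and 34.3% of all genes. Over the 142 genes the Pearson correlation of the 2 birth ratios was 0.25, against 0.45 over 7294 genes of any kind. Genes within a pair of arrays share their library, so these values describe the arrays.

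**Figure D3:**
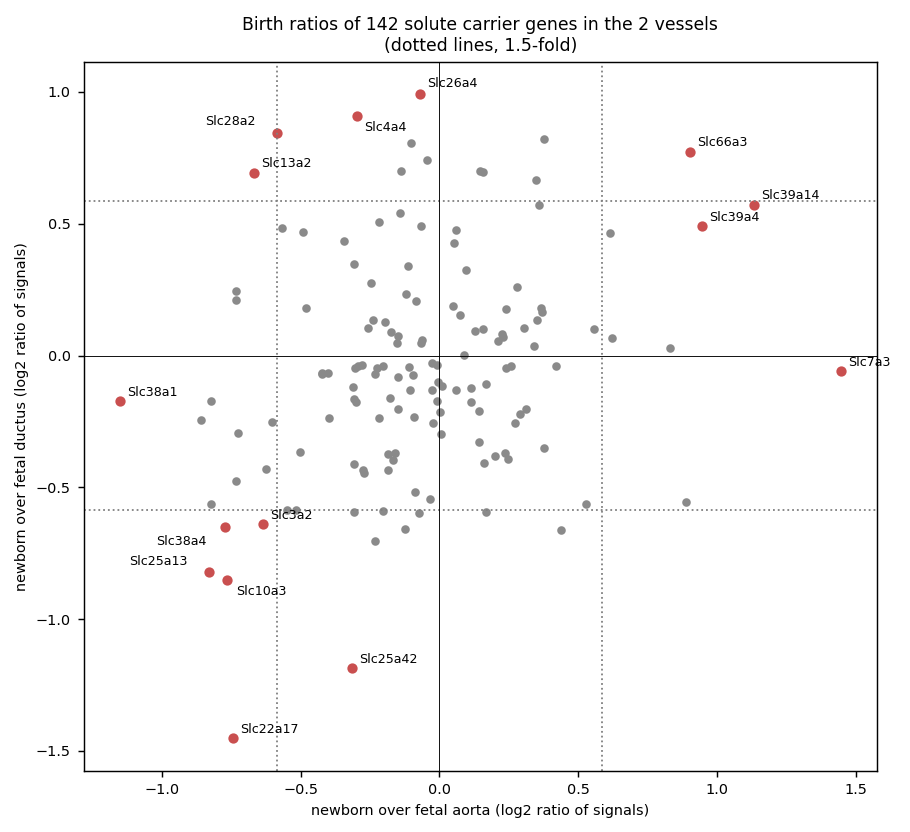
Log2 ratio of newborn over fetal signal of 142 solute carrier genes in aorta (horizontal) and ductus (vertical), 1 point per gene, with dotted lines at 1.5-fold. Slc22a17 lies lowest, Slc66a3 is past the line in the upper right corner, and Slc7a3 and Slc38a1 lie at the far right and left with ductus ratios near 0.

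The promoter windows of the 6 genes named above, Slc66a3 among them, are shown because their signal was at least 1.5-fold apart in the same direction at birth in both vessels. Each runs from 250 bases before to 50 bases after the annotated start, 5′ to 3′ on the gene's strand, from RefSeq on assembly GRCr8, with matches on either strand to GGGCGG (Sp1 box), CCAAT (the box bound by NF-Y) and ACGTG (core of the hypoxia element) in capitals. The windows are chr15:32358731-32359030 for Slc22a17, chrX:157309800-157310099 for Slc10a3, chr4:35328311-35328610 for Slc25a13, chr7:130082120-130082419 for Slc38a4, chr1:215048015-215048314 for Slc3a2 and chr6:45515068-45515367 for Slc66a3, all on the minus strand.
Slc22a17: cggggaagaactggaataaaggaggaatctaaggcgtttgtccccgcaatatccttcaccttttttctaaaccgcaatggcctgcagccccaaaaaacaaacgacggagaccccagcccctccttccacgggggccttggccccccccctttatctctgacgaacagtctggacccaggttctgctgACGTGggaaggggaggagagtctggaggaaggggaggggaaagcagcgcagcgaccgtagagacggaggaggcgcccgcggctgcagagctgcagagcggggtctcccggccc
Slc10a3: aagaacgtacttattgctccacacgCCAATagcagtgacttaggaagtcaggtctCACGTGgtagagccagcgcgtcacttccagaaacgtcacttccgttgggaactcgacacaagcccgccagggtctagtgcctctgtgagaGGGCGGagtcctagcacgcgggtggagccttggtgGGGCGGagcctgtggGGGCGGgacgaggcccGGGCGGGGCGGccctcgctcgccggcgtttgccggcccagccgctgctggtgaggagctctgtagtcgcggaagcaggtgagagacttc
Slc25a13: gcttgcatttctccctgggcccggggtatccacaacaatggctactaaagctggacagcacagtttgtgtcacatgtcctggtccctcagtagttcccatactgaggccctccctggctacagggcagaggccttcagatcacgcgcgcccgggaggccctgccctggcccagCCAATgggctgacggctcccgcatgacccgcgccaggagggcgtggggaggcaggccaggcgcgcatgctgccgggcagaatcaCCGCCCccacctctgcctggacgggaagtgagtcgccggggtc
Slc38a4: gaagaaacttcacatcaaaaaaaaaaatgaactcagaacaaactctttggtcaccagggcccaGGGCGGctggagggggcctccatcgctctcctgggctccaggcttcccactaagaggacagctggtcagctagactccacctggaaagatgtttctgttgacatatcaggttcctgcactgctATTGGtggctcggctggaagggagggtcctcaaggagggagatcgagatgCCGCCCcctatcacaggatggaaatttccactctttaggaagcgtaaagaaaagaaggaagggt
Slc3a2: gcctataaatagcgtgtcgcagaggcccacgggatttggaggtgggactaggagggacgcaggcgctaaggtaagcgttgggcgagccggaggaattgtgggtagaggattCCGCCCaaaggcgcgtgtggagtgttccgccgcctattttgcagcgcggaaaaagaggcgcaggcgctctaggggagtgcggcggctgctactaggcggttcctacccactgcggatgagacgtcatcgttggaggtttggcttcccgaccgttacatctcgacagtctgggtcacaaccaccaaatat
Slc66a3: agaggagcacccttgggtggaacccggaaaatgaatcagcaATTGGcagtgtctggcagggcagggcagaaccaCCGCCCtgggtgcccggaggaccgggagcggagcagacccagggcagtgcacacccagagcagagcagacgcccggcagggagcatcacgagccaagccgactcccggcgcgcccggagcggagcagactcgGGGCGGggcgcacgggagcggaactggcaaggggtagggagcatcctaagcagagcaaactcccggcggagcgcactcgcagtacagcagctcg
The Slc22a17 window held no GGGCGG or CCAAT and 1 ACGTG, whereas the Slc10a3 window held 5 GGGCGG, of which a pair overlaps, 1 CCAAT and 2 ACGTG that share a palindrome. Slc38a4 and Slc66a3 held 2 GGGCGG and 1 CCAAT each, Slc25a13 held 1 of each and Slc3a2 1 GGGCGG, and ACGTG was in none of these 4. Of the 155 kept genes 126 had a window. GGGCGG was in 68.3% of them against 34.9% of all 27457 windows of the table, CCAAT in 38.1% against 37.7%, ACGTG in 26.2% against 19.7%, and TGATGNAA, a core of the amino acid response element, in 4.76% against 3.82%. The table holds windows of genes of every kind, expressed here or not, and a match of letters is a description only.

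The amino acid and peptide carriers held 19 kept genes of 25, and 3 of them spanned at least 2-fold. Slc38a4 encodes a sodium-coupled carrier of small neutral amino acids. Its signal was 1235 in fetal aorta, 722 in newborn aorta, 1903 in fetal ductus, 1576 in oxygen ductus and 1212 in newborn ductus. Both ductus signals exceeded the aortic signal of the same age, by 1.54-fold in the fetus and 1.68-fold in the newborn, and it was the only transporter at least 1.5-fold higher in ductus at both ages. Over the 2 vessels its vessel effect in limma was 0.69 log2 units (SE 0.22, adjusted p 0.50) and its birth effect -0.71 (SE 0.22, adjusted p 0.11), neither past the threshold.

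Slc38a1, a carrier of glutamine and other neutral amino acids, had a signal of 574 in fetal aorta, 258 in newborn aorta, 584 in fetal ductus, 306 in oxygen ductus and 518 in newborn ductus. It was low in newborn aorta and in oxygen ductus and high in the other states. Newborn aorta was 2.22-fold below fetal aorta, and oxygen ductus 1.91-fold below fetal ductus. The only other probe set of Slc38a1 with signal gave a log2 ratio of -0.05 for oxygen, against -0.93 at the brightest, so the low value after oxygen was not seen by it.

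Slc7a3, one of the carriers that take up arginine and lysine, had a signal of 210.2 in fetal aorta, 573 in newborn aorta, 293 in fetal ductus, 263 in oxygen ductus and 281 in newborn ductus. Newborn aorta stood alone, 2.73-fold above fetal aorta and 2.04-fold above newborn ductus, while the 3 ductus states lay within 263 to 293. The related Slc7a1 was also higher in newborn aorta, at 230.5 against 122 in fetal aorta. The newborn aorta was the state with fat markers: the summed signal of 10 fat genes was 25502 there, against 1825 in fetal aorta and 2687 in newborn ductus, and all 9 of those above the floor were higher in newborn than in fetal aorta. Plin1 was under the floor in all 5 states. The part of fat tissue in the Slc7a3 value was not tested.

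Slc3a2, the heavy chain that carries several amino acid exchangers to the membrane, had a signal of 1307 in fetal aorta, 842 in newborn aorta, 1438 in fetal ductus, 1522 in oxygen ductus and 923 in newborn ductus, lower in each newborn vessel than in its fetal one by 1.56-fold and 1.55-fold. A second probe set repeated this in the aorta at a log2 ratio of -0.34 but gave 0.10 in the ductus. Its partner Slc7a5, which exchanges large neutral amino acids, differed by less than 1.5-fold in all 6 comparisons, with signals from 617 to 918. Slc38a2, the amino acid carrier known to be made when amino acids run short, was 1.92-fold higher in oxygen ductus and 1.77-fold higher in newborn ductus than in fetal ductus at its brightest probe set, whereas its second gave log2 ratios of -0.15 and 0.63. From fetal to newborn aorta the class held 3 genes at least 1.5-fold higher (Slc7a3, Slc7a1 and Slc15a3) and 5 lower (Slc38a1, Slc7a10, Slc38a4, Slc38a6 and Slc3a2) of 19, beside 7.53% higher and 10.9% lower among all genes.

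Targets of the amino acid response, the stress pathway that senses shortage of amino acids, were read beside these carriers. Of 13 listed genes on the chips 12 were above the floor. From fetal to newborn ductus 4 of 11 were at least 1.5-fold higher and 4 lower, and from fetal to newborn aorta 3 were higher and 1 lower. Under oxygen 1 of 12 was higher. The listed genes thus had no common direction in ductus at birth. These counts and those of the lists below stand beside the shares of all genes given above for the same comparisons.

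The acid-base, sodium, chloride and anion carriers held 15 kept genes of 26, of which 4 spanned at least 2-fold. Slc12a2, the sodium-potassium-chloride cotransporter that loads smooth muscle with chloride, had a signal of 602 in fetal aorta, 341 in newborn aorta, 687 in fetal ductus, 299 in oxygen ductus and 465 in newborn ductus. It was lowest in oxygen ductus, 2.30-fold below fetal ductus, and newborn aorta was 1.77-fold below fetal aorta. A second probe set, on chip A, gave a log2 ratio of 0.12 for oxygen against -1.20, so these 2 readings disagreed. Another set on that chip was hardly above the floor in fetal ductus at 153 and under it after oxygen at 70.8, so its ratio is only a bound. At birth the brighter 2 sets ran the same way: -0.56 and -0.80 in ductus, -0.82 and -0.69 in aorta. Neither passed in limma, with birth effects of -0.69 (SE 0.22, adjusted p 0.13) and -0.74 (SE 0.19, adjusted p 0.093).

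Slc4a4, an electrogenic sodium-bicarbonate cotransporter, had a signal of 883 in fetal aorta, 718 in newborn aorta, 640.0 in fetal ductus, 574 in oxygen ductus and 1201 in newborn ductus. Newborn ductus was highest, 1.88-fold above fetal ductus and 2.09-fold above oxygen ductus. Its chip A probe set gave a log2 ratio of -0.22 from fetal to newborn ductus, the opposite direction. Slc26a4 encodes pendrin, an exchanger of chloride, bicarbonate and iodide. Its signal was 491 in fetal aorta, 467 in newborn aorta, 133 in fetal ductus, 98.0 in oxygen ductus and 481 in newborn ductus. Fetal and oxygen ductus were under the floor, so that newborn ductus was at least 1.99-fold above fetal ductus, and fetal ductus was below fetal aorta by at least 2.03-fold. No other probe set read this gene.

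Slc12a9, a member of the cation-chloride family without a settled substrate, had a signal of 343 in fetal aorta, 495 in newborn aorta, 357 in fetal ductus, 418 in oxygen ductus and 200.1 in newborn ductus. Only newborn ductus was under the floor, at least 2.05-fold below newborn aorta. Slc4a1 is band 3, the chloride-bicarbonate exchanger of red blood cells. Its signal was 5476 in fetal aorta, 3290.3 in newborn aorta, 2879 in fetal ductus, 3701 in oxygen ductus and 3334 in newborn ductus, and fetal ductus was 1.90-fold below fetal aorta. The 3 probe sets with signal gave log2 ratios of -0.93, -0.91 and -0.75. In this comparison the red cell markers moved with it: their summed signal was 55649 in fetal aorta and 36564 in fetal ductus. At least 1.5-fold lower in ductus were 5 of 6 measured genes (median log2 ratio -1.28), while Hbb, the brightest, differed by 1.10-fold. Epb42 and Klf1 were under the floor in every state. From fetal to newborn aorta, where Slc4a1 was also lower, 1 of 6 markers was at least 1.5-fold higher and 3 lower. The part of blood in the Slc4a1 values was not tested. The remaining 10 kept genes of the class, chloride, bicarbonate and sodium-proton carriers, spanned from 1.03-fold to 1.65-fold at their brightest probe sets. For Slc4a2, which is among them, the probe sets disagreed on the vessel effect in limma. The brightest gave -0.0048 log2 units (SE 0.21) and another on chip A 1.06 (SE 0.20, adjusted p 0.16), higher in ductus.

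The carbonic anhydrase family, which holds enzymes that supply bicarbonate and protons to these carriers, was above the floor for 9 of 12 genes on the chips. From fetal to newborn ductus 3 of 8 were at least 1.5-fold higher (7.48% of all genes) and none lower (9.76%). They were Car2 at a log2 ratio of 0.59, Car3 at 1.37 and Car7 at 0.60 or more, a bound since fetal ductus was under the floor. Car3 is also on the fat marker list, of which 4 of 5 genes were higher in newborn ductus. In aorta 1 of 9 was higher, again Car3, with 14774 in newborn against 592 in fetal aorta. The sodium pump, which sets the sodium gradient used by cotransporters, was read at 7 of 12 genes, all of them beta subunit or Fxyd genes. The only alpha subunit gene of the list on the chips, Atp1a4, was under the floor in all 5 states, so no alpha subunit was read. Atp1b1, its beta 1 subunit, had a signal of 1772 in fetal aorta, 2133 in newborn aorta, 5231 in fetal ductus, 5081 in oxygen ductus and 4746 in newborn ductus, higher in every ductus state than in either aorta. Of these 7 genes, 2 were at least 1.5-fold higher in fetal ductus than in fetal aorta and 1 in newborn ductus than in newborn aorta. Besides Atp1b1 the first count held Fxyd7, as a bound since its fetal aorta signal was under the floor.

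**Figure D4:**
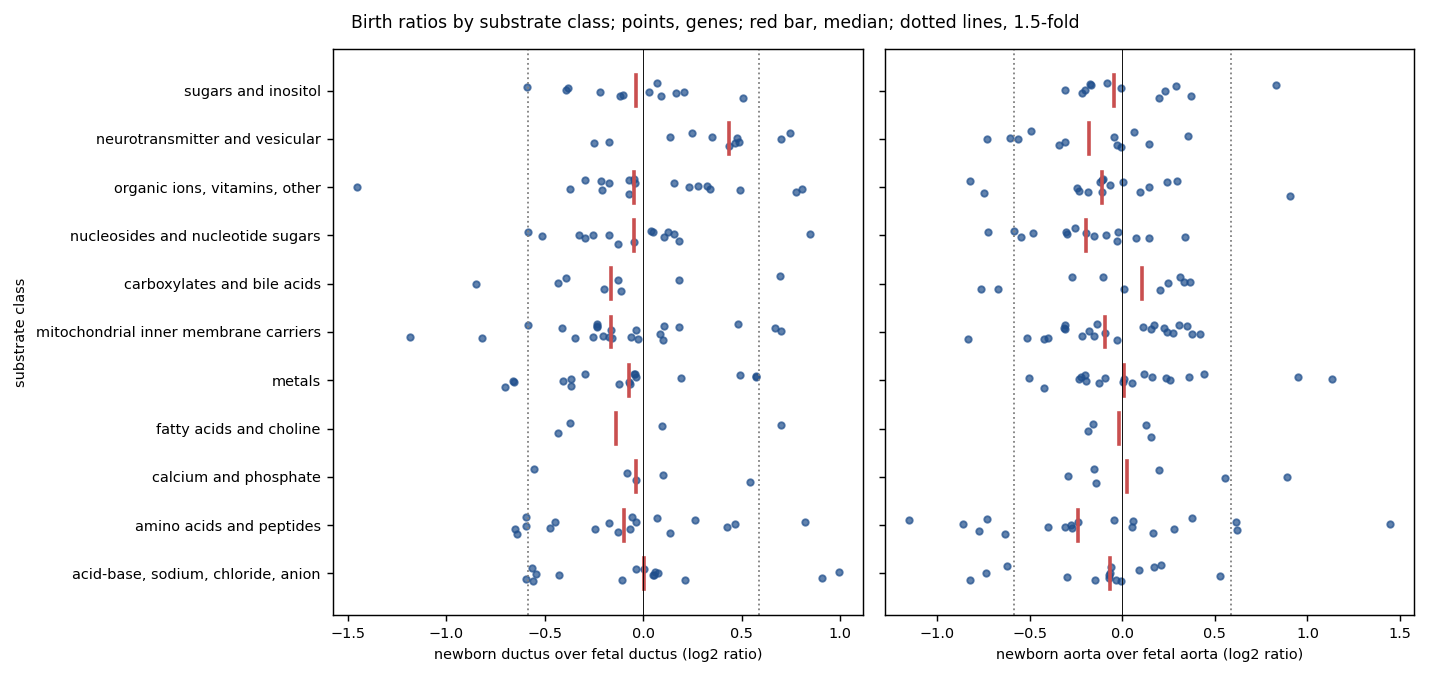
Log2 ratio of newborn over fetal signal for each measured solute carrier gene by substrate class, in ductus (left) and aorta (right), 1 point per gene with vertical jitter and the class median as a red bar. The neurotransmitter and vesicular class has a median of 0.44 in ductus and -0.18 in aorta, while the other class medians lie within -0.24 to 0.10.

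The neurotransmitter, creatine, taurine and vesicular carriers, 12 kept of 23, had the highest class median in ductus at birth. From fetal to newborn ductus their median log2 ratio was 0.44 over 11 measured genes, against -0.05 for all genes. Of the 11 genes 9 had a ratio above 0 and 2 below it, Slc6a4 at -0.17 and Slc18b1 at -0.25, and 2 were at least 1.5-fold higher (7.48% of all genes) and none lower (9.76%). Their median in newborn ductus over newborn aorta, which uses the same newborn ductus arrays, was 0.42. In fetal ductus over fetal aorta, on the fetal ductus arrays of the birth ratio, it was -0.18, with 11 of 12 genes below 0. In the aorta at birth the median was -0.18, with Slc18a3 and Slc18b1 lower. Slc6a8, the creatine transporter, had a signal of 339 in fetal aorta, 328 in newborn aorta, 344 in fetal ductus, 407 in oxygen ductus and 575 in newborn ductus, highest in newborn ductus at 1.67-fold above fetal ductus and 1.75-fold above newborn aorta. Slc18a3, which fills synaptic vesicles with acetylcholine, had a signal of 373 in fetal aorta, 224 in newborn aorta, 263 in fetal ductus, 205 in oxygen ductus and 311 in newborn ductus, and newborn aorta was 1.66-fold below fetal aorta. Its second probe set gave a log2 ratio of -0.24 in aorta at birth and -0.23 in ductus, against -0.73 and 0.24 at the brightest.

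The noradrenaline transporter Slc6a2 had a signal of 281 in fetal aorta, 189.8 in newborn aorta, 209.8 in fetal ductus, 205 in oxygen ductus and 293 in newborn ductus, and the dopamine transporter Slc6a3 had 165 in fetal aorta, 182 in newborn aorta, 146 in fetal ductus, 197 in oxygen ductus and 243 in newborn ductus. Each was highest in newborn ductus. The cell type markers measured on the same ductus arrays differed at birth as well. Endothelial markers were at least 1.5-fold higher in newborn ductus for 5 of 6 genes (median log2 ratio 0.78), smooth muscle markers for 6 of 8 (0.62) and fat markers for 4 of 5 (0.93), while heart muscle markers were lower for 8 of 9 (-1.75). Of nerve and chromaffin markers, 6 of 9 above the floor, 1 of 5 was higher and 1 lower (median -0.43). The part of these cell types in the carriers' ratios was not tested. In aorta 5 of 6 nerve markers were lower after birth (median -1.51), beside the lower Slc18a3, and the part of nerve tissue in it was not tested. Snap25, Syt1 and Chgb were under the floor in all 5 states. Of the 12 kept genes of the class 7 stayed within 1.5-fold over the 5 states.

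The carriers of monocarboxylates, dicarboxylates and bile acids held 10 kept genes of 18. Slc10a3, a member of the bile acid carrier family whose substrate is not settled, had a signal of 539.7 in fetal aorta, 317 in newborn aorta, 782 in fetal ductus, 984 in oxygen ductus and 433 in newborn ductus. It was lowest in newborn aorta and newborn ductus and highest in oxygen ductus, 2.27-fold above newborn ductus. Its birth effect in limma was -0.81 log2 units (SE 0.22, adjusted p 0.084). Slc16a1 encodes MCT1, which moves lactate, pyruvate and ketone bodies with protons. Its signal was 421 in fetal aorta, 499.9 in newborn aorta, 285 in fetal ductus, 191 in oxygen ductus and 217 in newborn ductus. Every ductus state lay below both aortas, newborn ductus by 2.30-fold against newborn aorta. A second probe set gave log2 ratios of -0.00 and, with newborn ductus under the floor and so as a bound, -0.11 for ductus over aorta in fetus and newborn, against -0.56 and -1.20, and the vessel effect of the brightest in limma was -0.88 (SE 0.22, adjusted p 0.27).

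Slc16a3, the lactate exporter MCT4 of glycolytic cells, stayed within 1.5-fold, from 398 in oxygen ductus to 541 in fetal ductus. All 14 lactate and glucose enzymes on the chips were above the floor, and at birth 1 of 14 was at least 1.5-fold higher and 1 lower in ductus and none in aorta. The higher one, Pdk4, a kinase that holds back pyruvate oxidation, had a signal of 161 in fetal aorta, 343 in newborn aorta, 169 in fetal ductus, 157 in oxygen ductus and 768 in newborn ductus. Slc13a2, a sodium-coupled carrier of citrate and succinate, had a signal of 238 in fetal aorta, 67.4 in newborn aorta, 132 in fetal ductus, 83.6 in oxygen ductus and 242 in newborn ductus. It was above the floor only in fetal aorta and newborn ductus.

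The sugar and inositol carriers held 12 kept genes of 18. Slc2a4 encodes GLUT4, the glucose transporter that insulin brings to the surface of muscle and fat cells. Its signal was 483 in fetal aorta, 859.7 in newborn aorta, 1038 in fetal ductus, 1142 in oxygen ductus and 1059.7 in newborn ductus. Fetal aorta was lowest, with fetal ductus 2.15-fold above it and newborn aorta 1.78-fold above it, while the 3 ductus states differed by at most 1.10-fold. A second probe set gave log2 ratios of 0.54 and 0.40, against 1.10 and 0.83, the same directions with smaller sizes. Beside the first of these, heart muscle markers were higher in fetal ductus than in fetal aorta for 9 of 9 genes (summed signal 24332 against 9686), and beside the second, fat markers were higher for 9 of 9, as given above. Smooth muscle markers were higher in fetal ductus than in fetal aorta for 5 of 8 genes (median log2 ratio 0.68), and their summed signal was lowest in fetal aorta, as Slc2a4 was, at 47693 against 64109 to 103345 in the other states. The heart markers' summed signal in newborn ductus was 7594. The part of these tissues was not tested.

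Slc5a3, the sodium-coupled myo-inositol carrier used against osmotic stress, had a signal of 251 in fetal aorta, 236 in newborn aorta, 231 in fetal ductus, 105 in oxygen ductus and 267 in newborn ductus, under the floor only in oxygen ductus and at least 1.54-fold below fetal ductus there. Slc2a3, the high-affinity glucose carrier GLUT3, was lowest in newborn ductus at 494 against 744 in fetal ductus, whereas its second probe set had 276 and 245 there, a log2 ratio of 0.17 against -0.59. The other 9 kept genes spanned less than 1.5-fold. Among the genes left out by the rule, the glucose carrier Slc2a1 had a signal of 368 in fetal aorta, 391 in newborn aorta, 425 in fetal ductus, 549.8 in oxygen ductus and 430.5 in newborn ductus. Its other 3 probe sets were lower after oxygen, with log2 ratios of -0.90, -0.62 and -0.37 against 0.37. The sodium-calcium exchanger Slc8a1 ran from 915 in fetal aorta to 2152 in oxygen ductus, and the choline carrier Slc44a2 from 304 in newborn aorta to 929.5 in newborn ductus.

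The carriers of the mitochondrial family Slc25, most of which pass metabolites across the inner membrane, held the most kept genes of any class. Of 30 genes 24 were kept, and 2 of these spanned at least 2-fold. Slc25a42, which imports coenzyme A, had a signal of 569 in fetal aorta, 457 in newborn aorta, 553 in fetal ductus, 492 in oxygen ductus and 75.9 in newborn ductus. Newborn ductus alone was under the floor, at least 2.27-fold below fetal ductus and at least 1.88-fold below newborn aorta, and no other probe set read the gene. Slc25a13, the aspartate-glutamate carrier citrin, had a signal of 430.3 in fetal aorta, 189.6 in newborn aorta, 510.1 in fetal ductus, 298 in oxygen ductus and 289 in newborn ductus. It was lower in newborn than in fetal ductus by 1.77-fold, in newborn than in fetal aorta by at least 1.78-fold and after oxygen by 1.71-fold, with a birth effect in limma of -0.83 (SE 0.22, adjusted p 0.078). Its second probe set was under the floor in all states.

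Slc25a37, the iron importer mitoferrin 1 of red cell precursors, had a signal of 470.3 in fetal aorta, 427 in newborn aorta, 266 in fetal ductus, 289 in oxygen ductus and 431 in newborn ductus, 1.77-fold lower in fetal ductus than in fetal aorta, as band 3 and the red cell markers were, and the part of blood was not tested here either. Slc25a39, which carries glutathione, had a signal of 4840.0 in fetal aorta, 6163 in newborn aorta, 3092 in fetal ductus, 4507 in oxygen ductus and 4910.1 in newborn ductus, 1.56-fold lower in fetal ductus, but its second probe set gave a log2 ratio of 0.38. Several carriers hardly varied. The phosphate carrier Slc25a3 ran from 4038 to 4650.0 and the heart and muscle ADP/ATP carrier Slc25a4 from 5891 to 7021. Its sister Slc25a5 was at 6391 in newborn aorta and from 4439 to 4776 elsewhere. In all, 16 of the 24 kept carriers of family Slc25 spanned less than 1.5-fold.

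The metal carriers held 19 kept genes of 23, and 3 spanned at least 2-fold. Slc39a14, a plasma membrane importer of zinc that also carries iron and manganese, had a signal of 794 in fetal aorta, 1742 in newborn aorta, 876 in fetal ductus, 927 in oxygen ductus and 1302 in newborn ductus. Slc39a4, the zinc importer best known from the gut, had a signal of 676 in fetal aorta, 1304 in newborn aorta, 596 in fetal ductus, 623 in oxygen ductus and 838 in newborn ductus. Both were highest in newborn aorta and next in newborn ductus. Newborn aorta exceeded fetal aorta by 2.19-fold for Slc39a14 and 1.93-fold for Slc39a4, and newborn ductus exceeded fetal ductus by 1.49-fold and 1.41-fold. The birth effects in limma were 0.85 (SE 0.21, adjusted p 0.12) and 0.72 (SE 0.23, adjusted p 0.13). The fat markers given above were high in the same newborn aorta, and their part was not tested.

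Slc41a1, a magnesium carrier, had a signal of 225 in fetal aorta, 329 in newborn aorta, 512 in fetal ductus, 387 in oxygen ductus and 324 in newborn ductus. Fetal ductus was highest and fetal aorta under the floor, so fetal ductus was at least 2.11-fold higher. Slc41a3, of the same family, was also highest in fetal ductus at 661 and lowest in newborn ductus at 419. Zinc exporters of family Slc30 were kept for 6 of 8 genes, and 1 of them was at least 1.5-fold apart at birth: Slc30a6, which loads zinc into the Golgi, at 909.8 in fetal and 559 in newborn ductus. Of 18 metal carriers measured under oxygen 0 were 1.5-fold apart, where 4.38% of all genes were higher and 5.41% lower.

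The nucleoside and nucleotide sugar carriers held 15 kept genes of 16. Slc35a2 brings UDP-galactose into the Golgi. Its signal was 964 in fetal aorta, 658 in newborn aorta, 873 in fetal ductus, 1215 in oxygen ductus and 582 in newborn ductus. Newborn ductus was lowest, 2.09-fold below oxygen ductus, but the second probe set gave a log2 ratio of 0.06. Slc29a3, a nucleoside carrier of lysosomes and other organelles, had a signal of 1099.8 in fetal aorta, 665 in newborn aorta, 726 in fetal ductus, 576 in oxygen ductus and 591 in newborn ductus, highest in fetal aorta and 1.66-fold lower in newborn aorta, where its other probe sets gave log2 ratios of -0.31 and -0.18, both bounds since newborn aorta was under the floor. Slc28a2, which takes up purine nucleosides with sodium, had a signal of 1351 in fetal aorta, 900.5 in newborn aorta, 794 in fetal ductus, 1026 in oxygen ductus and 1426 in newborn ductus, high in fetal aorta and newborn ductus and low in newborn aorta and fetal ductus. The other carriers of family Slc35 stayed within 1.56-fold, 9 genes that supply sugars, sulfate donor and related groups to the Golgi and endoplasmic reticulum.

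The calcium and phosphate carriers had 6 kept genes of 9 and none with a 2-fold span. Slc34a3, a sodium-phosphate cotransporter known from the kidney, had a signal of 282 in fetal aorta, 522 in newborn aorta, 505 in fetal ductus, 305 in oxygen ductus and 343 in newborn ductus, high in newborn aorta and fetal ductus. Slc8a2, a sodium-calcium exchanger found mostly in brain, had a signal of 286 in fetal aorta, 259.7 in newborn aorta, 256 in fetal ductus, 222 in oxygen ductus and 372 in newborn ductus, highest in newborn ductus at 1.68-fold above oxygen ductus. The housekeeping phosphate carriers Slc20a1 and Slc20a2 differed: the first ran from 526 to 589.8, while the second was higher in newborn aorta and oxygen ductus (1144 and 1081) than in the other states. A second probe set of Slc20a2 was also highest in newborn aorta, at 671, but lowest in oxygen ductus, with a log2 ratio of -0.44 for oxygen against 0.65 at the brightest.

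The fatty acid and choline carriers had 4 kept genes of 5. Slc44a1, a choline carrier, had a signal of 678 in fetal aorta, 756 in newborn aorta, 491 in fetal ductus, 835 in oxygen ductus and 796 in newborn ductus, 1.70-fold higher after oxygen and 1.62-fold higher in newborn than in fetal ductus. Its other probe sets gave log2 ratios of 0.01 and -0.41 for oxygen, so the oxygen value was seen by 1 of 3. Slc27a3, of the fatty acid carrier family, had a signal of 872 in fetal aorta, 766 in newborn aorta, 935 in fetal ductus, 843 in oxygen ductus and 692 in newborn ductus and differed by at most 1.35-fold. Slc27a1, a fatty acid carrier of muscle and fat, ran from 911 to 1071, within 1.5-fold also in the newborn aorta with its fat markers.

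The organic ion, vitamin, urea and unclassed carriers had 19 kept genes of 31. Besides Slc22a17, only Slc66a3 spanned at least 2-fold. Slc66a3, a protein with the PQ-loop repeats found in lysosomal amino acid exporters, had a signal of 1504 in fetal aorta, 2815 in newborn aorta, 1184 in fetal ductus, 1259.6 in oxygen ductus and 2023 in newborn ductus. It was higher in the newborn state of each vessel, 1.71-fold in ductus and 1.87-fold in aorta, and oxygen ductus stood near fetal ductus. Its birth effect in limma was 0.84 log2 units (SE 0.22, adjusted p 0.075). The urea carrier Slc14a2 was highest in newborn ductus at 1291, against 738 in fetal ductus. The organic anion carriers of family Slco, outside the rule by name, were above the floor for 3 of 9 genes on the chips. Slco2a1, which takes prostaglandins up for breakdown, had a signal of 646 in fetal aorta, 784 in newborn aorta, 1140.4 in fetal ductus, 1169 in oxygen ductus and 969 in newborn ductus, 1.76-fold higher in fetal ductus than in fetal aorta.

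How far a ratio was borne out by a gene's other probe sets depended on the comparison. The 6 comparisons held 122 transporter ratios at least 1.5-fold apart at the brightest probe set, with 54 readings by other probe sets of those genes, and 37 of these (68.5%) had the same direction, against 2520 of 3346 (75.3%) for all genes. In the aorta at birth 13 of 13 had the same direction, against 82.9% for all genes, and in ductus at birth 5 of 10, against 77.1%. Under oxygen it was 4 of 8, against 56.9%, and in newborn over oxygen ductus 6 of 12, against 69.6%. Ductus over aorta gave 5 of 6 in the fetus, against 84.2%, and 4 of 5 in the newborn, against 78.6%.

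**Figure D5:**
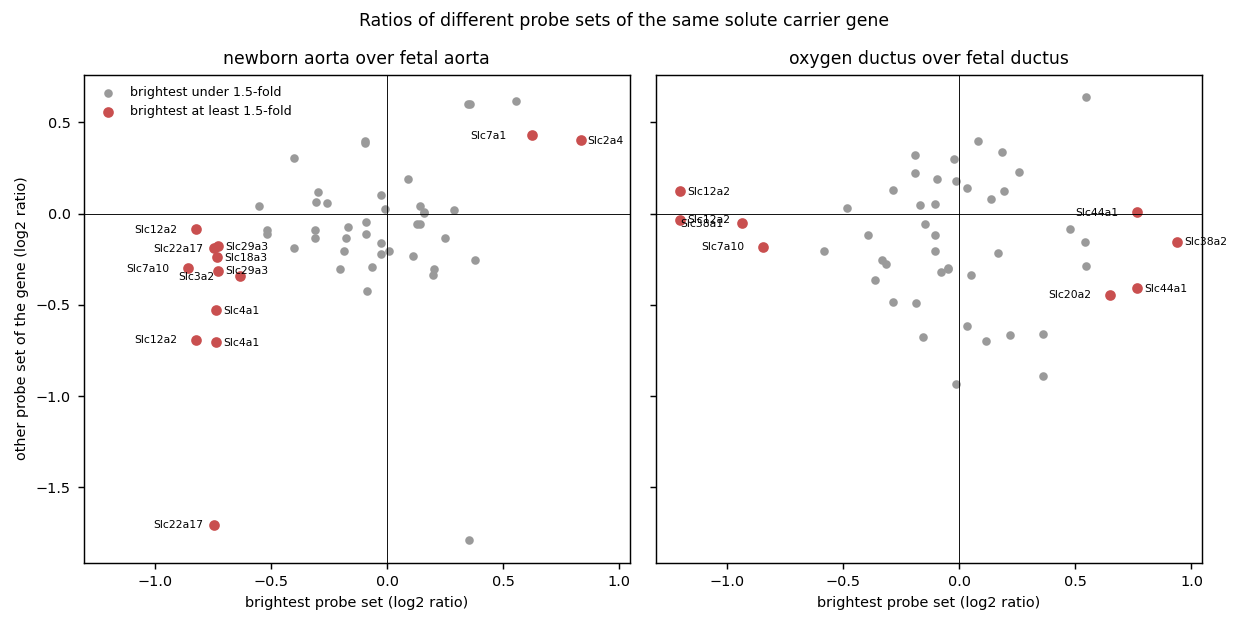
Log2 ratio at the brightest probe set (horizontal) and at each other probe set of the same solute carrier gene (vertical), for newborn over fetal aorta (left) and oxygen over fetal ductus (right), genes at least 1.5-fold apart in red. In the left panel all 13 red points have the same sign on both axes, and in the right panel 4 of 8 do.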

How the data were processed

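RNA of 5 rat vessel states was measured on 3 Affymetrix chip types, 1 array per state and chip. The authors deposited linear signal intensities. MAS5 is named for 4 of the 5 chip A arrays, per the submitters' processing notes, and for the others the software is not given in the sources used here. Without control probe sets the arrays had trimmed means (2% off each tail) from 495.2 to 498.3, so they had been brought to a common scale. On chip A, the newborn aorta array has a title that counts its 3 hours from coitum, and its description, which calls the animals newborn, was followed.

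Probe sets were named through the platform annotation: 18178 of 26202 had 1 gene, 391 several and 7633 none. Of the first, 18122 were found by gene number in the current rat gene table and 0 changed symbol. Signals were floored at the pooled median of the chip before log2. A gene was read at the probe set with the highest mean signal over the floor. Genes above the floor on at least 1 of 2 arrays entered a comparison, and 1.5-fold was the threshold for counts. Substrate classes followed the family number and not the substrate of each member, so a class can hold members with other substrates. Family Slc66 was placed after the files were seen. limma 3.58.1 in R 4.3.3 fitted vessel and stage additively on 4 arrays per chip using probe sets that exceeded the floor in 2 or more of them, with 1 residual degree of freedom and Benjamini-Hochberg adjustment per chip at 0.05. The script was tested on simulated data. With 1 array per state and chip, the number of arrays limits the precision, and p-values measure the spread between these arrays, with the interaction as error.

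Genes named were those spanning at least 2-fold, those called by limma, the 2 with the largest span in classes with fewer than 2 such genes, the 3 nearest each side of the floor and the 3 left out. Other genes are named where a count of 5 or fewer or a described list holds them, a choice made after seeing the values. The members, classes and lists were chosen with earlier results of these data known. Alternatives were a floor at the 25th or 65th percentile, no floor with a pseudocount of 50, quantile normalization, the mean of all probe sets of a gene, and for limma an intensity trend, adjustment over the 3 chips together and no filter.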

Additional observations from a re-analysis of the deposited data

Results flagged for a closer look

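The birth ratios of 2 transporters ran in opposite directions in the 2 vessels by at least 1.5-fold each, with 1 array per state, so the difference was not tested. They were 2 of 142 genes measured in both vessels, against 37 of 7294 genes of any kind. Slc13a2, the citrate carrier, had a log2 ratio of newborn over fetal signal of 0.69 in ductus and -0.67 in aorta, and Slc28a2, the purine nucleoside carrier, 0.85 and -0.59. Seen across vessels, on the same 4 arrays, fetal ductus over fetal aorta was -0.67 for Slc13a2 and -0.77 for Slc28a2, and newborn ductus over newborn aorta 0.69 and 0.66. Fetal ductus and newborn aorta were under the floor for Slc13a2, whose ratios are therefore lower bounds in size.

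Slc34a3, the phosphate cotransporter, had opposite ratios of ductus over aorta by age, 0.84 for fetal and -0.60 for newborn vessels, and this difference was not tested either. Among 136 transporter genes measured at both ages these 3 were opposite by at least 1.5-fold each, against 45 of 7202 genes of any kind.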

How the results depend on the processing

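The counts moved mainly with the floor. With a floor at the 25th percentile, transporters at least 1.5-fold higher and lower numbered 10 and 23 in fetal ductus over fetal aorta, 21 and 22 in newborn ductus over newborn aorta, 28 and 27 in ductus at birth, 16 and 37 in aorta at birth, 9 and 26 under oxygen and 35 and 23 in newborn over oxygen ductus. With a floor at the 65th percentile they were 2 and 4, then 4 and 6, with 9 lower in ductus at birth, 5 and 6 in aorta at birth, 2 lower under oxygen and 5 higher in newborn over oxygen ductus. The shares of all genes for these counts, in the same order, were 3.4% and 3.57%, 4.46% and 4.71%, 8.07%, 6.88% and 8.51%, 3.5% and 8.36%. Those of the transporters were 2.08% and 4.17%, 4.3% and 6.45%, 9.89%, 5.05% and 6.06%, 2.27% and 5.62%. These settings also change how many genes are measured. With the lower floor the shares of all genes, higher and lower in the same order, were 6.97% and 8.98%, 9.67% and 8.99%, 10.5% and 12.9%, 9.97% and 15.1%, 6.25% and 10.4%, and 15% and 16%, below the transporters' share in 8 of 12 counts. A pseudocount of 50 without a floor gave 3 higher (2.11%, against 4.43% of all genes) and 14 lower (9.86%, against 5.79%) under oxygen. For limma's vessel effect an intensity trend called 1 transporter probe set, among 65 of all genes. For its birth effect the calls were 0 with the lower floor, 3 with the pseudocount, 2 with the trend, 0 with adjustment over the 3 chips together and 0 without the filter, and the cause was not tested. Over all genes limma called 279 probe sets for birth with the pseudocount, 532 with the trend and 197 with adjustment over the 3 chips together. With the lower floor and without the filter limma called 0 probe sets of any gene for birth. Of 74 such recomputed values 45 stayed within 1.5 times the count reported. For 18 named ratios, 69 of 90 recomputed values moved by less than the spread of their chip, 21 by more, and 0 reversed. Slc25a42 from fetal to newborn ductus ran from -0.38 with the higher to -2.80 with the lower floor, and Slc26a4 in fetal ductus over fetal aorta from -0.19 to -1.88. No paired analysis was possible because each state had 1 array per chip type.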
